A study of Homo sapiens with 2 samples.

Results

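Cytoplasmic ribosomal protein genes were taken as all genes whose symbol is RPL or RPS followed by a number, with or without a final A, together with RPLP0, RPLP1, RPLP2 and RPSA. The rule used names only and found 76 of the 62704 genes in the annotation, 46 of the large ribosomal subunit and 30 of the small subunit. All 76 symbols stood for a single Ensembl identifier, and all 76 were detected in both libraries of the study. Some other genes that encode ribosomal proteins, such as RPS4X and FAU, do not match the name pattern and were not counted as members.

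The study asked how the shape and tissue organization of human brain organoids affect their cells. Both libraries came from organoids of the human embryonic stem cell line H9, so all groups share this line, and both were made by split-seq, where successive rounds of wells add barcodes to RNA and a combination of them stands for 1 cell or nucleus. The library of single cells pooled cerebral organoids (CO) at days 45, 55 and 70, organoids dissociated at day 45 and reaggregated (DISS) at days 48, 55 and 70, and organoids constrained in 3% agarose (CONS) at day 55. The library of nuclei, labeled as a control experiment, was made from CO at day 45, either frozen whole or first dissociated to single cells, while its treatment label reads Control/Dissociated/Embed. Within a library, the deposited metadata name the same sample for every barcode. A library is therefore 1 sample, conditions and organoids cannot be separated, and there is no replicate from which to compute a p-value.

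Ribosomal proteins build, with ribosomal RNA, the subunits that translate mRNA, and their mRNAs are among the most abundant in the cytoplasm. These mRNAs typically begin with a C followed by a run of pyrimidines, the terminal oligopyrimidine (TOP) motif, through which the mTOR pathway controls their translation. In the developing cortex, radial glia (RG) are the progenitors from which intermediate progenitor cells (IPCs) and excitatory neurons arise.

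The sequences at the annotated starts show what the members share that the naming rule did not use. RefSeq (GRCh38.p14) gave the start region of 61 of the 76 members, and 10 of these had more than 1 start. At 46 of the 61 (75.4%), the first base was a C followed by at least 4 bases that were each C or T, compared with 5.14% of 27305 genes with such a region. For a gene with several starts, any 1 of them sufficed, here and for the motifs below. Shifting the search by up to 5 bases in either direction gave 53 of 61 members and 25.2% of all genes. The windows below run 5′ to 3′ from 10 bases before the first transcribed base, with the pyrimidine run that begins at that base in capitals. The stalk proteins, the receptor-like RPSA, the members that differed least between cells and nuclei and the members that differed most are shown, because the later results turn on them.
RPLP0, chr12:120201092-120201121, minus strand: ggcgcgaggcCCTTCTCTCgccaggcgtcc
RPLP1, chr15:69452808-69452837, plus strand: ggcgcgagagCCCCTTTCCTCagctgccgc
RPLP2, chr11:809957-809986, plus strand: tcggcgccttCCTTTTCCTCCCTgtcgcca
RPSA, chr3:39406710-39406739, plus strand: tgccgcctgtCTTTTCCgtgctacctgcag
RPL37A, chr2:216498834-216498863, plus strand: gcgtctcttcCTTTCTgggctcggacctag
RPL31, chr2:101002279-101002308, plus strand: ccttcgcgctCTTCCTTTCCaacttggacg
RPS3, chr11:75399508-75399537, plus strand: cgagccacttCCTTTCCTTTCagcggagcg
RPS9, chr19:54200848-54200877, plus strand: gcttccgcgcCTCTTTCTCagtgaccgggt
RPS13, chr11:17077648-17077677, minus strand: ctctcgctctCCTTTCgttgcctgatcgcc
RPS21, chr20:62387093-62387122, plus strand: ctagctgcttCCTTTCTCTCTCgcgcgcgg
RPL41, chr12:56116623-56116652, plus strand: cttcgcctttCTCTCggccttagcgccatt
RPS6, chr9:19380217-19380246, minus strand: gaagttggccCTCTTTTCCgtggcgcctcg
RPS15, chr19:1438386-1438415, plus strand: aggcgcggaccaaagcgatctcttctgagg
RPS28, chr19:8321486-8321515, plus strand: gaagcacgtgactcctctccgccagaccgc
RPS26, chr12:56041908-56041937, plus strand: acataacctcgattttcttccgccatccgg

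The windows of RPL37A and RPL31, with the lowest ratios of cells to nuclei, and of RPS13 and RPS21, with ratios among the highest, all carried the run. RPS15, RPS28 and RPS26 did not carry it at the annotated base. The 46 members with the run had a median log2 ratio of cells to nuclei of 2.23, and the 15 without it had 2.07. Other motifs were searched on both strands of the region from 250 bases before to 50 bases after the start. CCGGAAG, the core bound by ETS factors such as GABP, was found in 21 of 61 members (34.4%) and in 12.2% of all genes. TCTCGCGA was found in 12 of 61 members (19.7%) and in 1.37% of all genes. AAGATGGC, the core of the YY1 motif, was found in 6 members (9.84%) and in 3.52% of all genes, and GGGCGG in 35 members (57.4%) and in 48.3% of all genes. TATAAA lay 20 to 40 bases before the start, on the sense strand, in 2 members (3.28%) and in 2.86% of all genes.

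Barcodes needed over 500 detected genes and over 1000 transcripts to be kept, of which no more than 20% could come from the mitochondrial genome. This left 20178 cells with 157306492 transcripts (median 2615 per cell) and 14228 nuclei with 72162726 transcripts (median 3890). The cells were divided among 8 sub-libraries and the nuclei among 2. An SD over sub-libraries measures technical spread only, and intervals are 95% exact binomial intervals that cover counting error only. The first-round wells, 48 for cells and 12 for nuclei, held material of unknown condition. Barcode names shared by both libraries, 99 among those kept, belong to libraries barcoded separately.

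The ribosomal protein genes gave 891031 transcripts in the cells and 103978 in the nuclei. Their share of all transcripts was 0.566% ± 0.0257 in cells (SD over 8 sub-libraries, interval 0.565 to 0.568) and 0.144% ± 0.00446 in nuclei (SD over 2 sub-libraries). The share in cells was 3.93 times that in nuclei (interval 3.91 to 3.96), and the lowest sub-library of cells (0.530%) lay above the highest of nuclei (0.147%). Mitochondrially encoded genes differed in the same direction, at 3.02% of transcripts in cells and 0.389% in nuclei. Preparation, culture condition, day and sequencing depth all differ between the libraries and cannot be told apart.

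All 76 members had a higher level in cells than in nuclei, and for none of the 76 did the sub-libraries of cells and nuclei overlap, against 55.8% of all genes tested that were higher in cells without overlap. At least 2-fold higher levels in cells were found for 74 of 76 members, against 28.5% of the 25605 genes with at least 100 counts over both libraries. None of the members was at least 2-fold lower, against 0.465% of these genes. The median log2 ratio was 2.19 over the members, a 4.57-fold difference, and 0.45 over all genes tested. Measured relative to that general shift, the median of the members was 1.74 and 69 of 76 stayed at least 2-fold higher. Among protein-coding genes spanning less than 10 kb, a class that holds 59 of the members, all 59 members were at least 2-fold higher, against 41.3% of the class. The median log2 ratio was 2.19 for the large subunit and 2.19 for the small subunit.

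**Figure D1:**
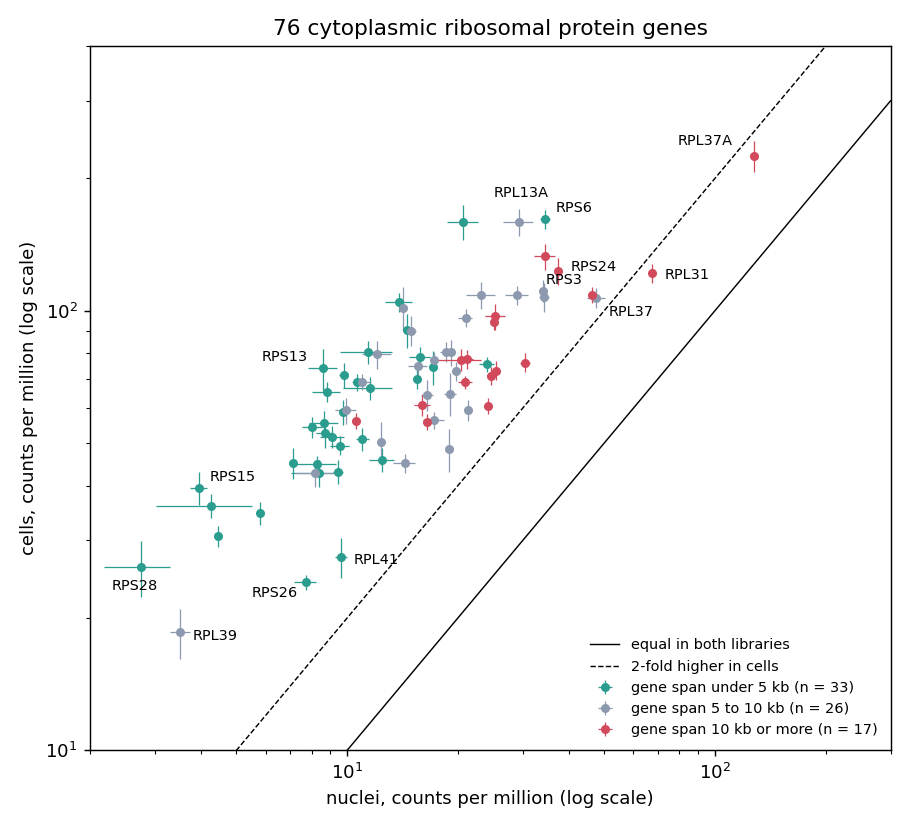
Level of each of the 76 members in nuclei (x axis) and cells (y axis), in counts per 1000000 transcripts (CPM) on log scales, with bars for the SD over sub-libraries and colors for the span of the gene. All points lie above the line of equal levels, and only RPL37A and RPL31 lie below the line of a 2-fold difference.

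The largest ratios belonged to small-subunit genes. RPS15 had 39.5 counts per 1000000 transcripts (CPM) in cells (SD 3.48) and 3.95 in nuclei (SD 0.21), a ratio of 10.0 (interval 8.89 to 11.3). Its sub-libraries ranged from 36.5 to 47.0 in cells and from 3.79 to 4.08 in nuclei, far from overlapping. RPS28 had 26.1 ± 3.83 CPM in cells and 2.74 ± 0.56 in nuclei, a ratio of 9.52 that rests on 198 counts in nuclei, the lowest of any member. RPS13 (8.57-fold) and RPS21 (8.42-fold) followed, both components of the small subunit as well.

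The smallest ratios belonged to RPL37A and RPL31, which encode proteins of the large subunit. RPL37A, the most abundant member by counts in both libraries, had 225 ± 18.2 CPM in cells and 128 ± 0.76 in nuclei, a ratio of 1.76 (interval 1.72 to 1.80). RPL31 had 122 ± 5.99 in cells and 67.2 ± 0.47 in nuclei, a ratio of 1.81. Both stayed below 2-fold, although neither had sub-libraries that overlapped. RPL37 (2.25-fold), RPS3 (2.34-fold) and RPS9 (2.50-fold) came next. RPS3 sits where mRNA enters the small subunit.

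Several of these low-ratio genes have a long span in the annotation. RPL37A spans 80356 bases in GENCODE release 44 (chr2:216498825-216579180), RPS9 spans 48195 bases and RPL31 spans 21804 bases, whereas RPS15 spans 2138 bases (chr19:1438358-1440495). Over the 76 members, the log2 ratio fell with gene span (Spearman rho -0.60). The relation was weaker for the span of the canonical transcript (rho -0.41) and for its length (rho -0.21), and the canonical transcript of RPL37A spans 5243 bases and that of RPL31 spans 4979 bases, so the long spans come from other annotated isoforms. RPL37, whose ratio was next after these, spans 9961 bases. The 33 members under 5 kb had a median ratio of 6.04, the 26 members of 5 to 10 kb had 4.27, and the 17 members of 10 kb or more had 3.30. RPL41, the gene of the smallest ribosomal protein, went against this order with a span of 1378 bases and a ratio of 2.85 (interval 2.63 to 3.10). In nuclei, the level in CPM rose with gene span over the members (rho 0.69), and in cells less so (rho 0.46). Whether the counts of long genes include intronic reads was not tested, since the files give 1 count per gene.

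**Figure D2:**
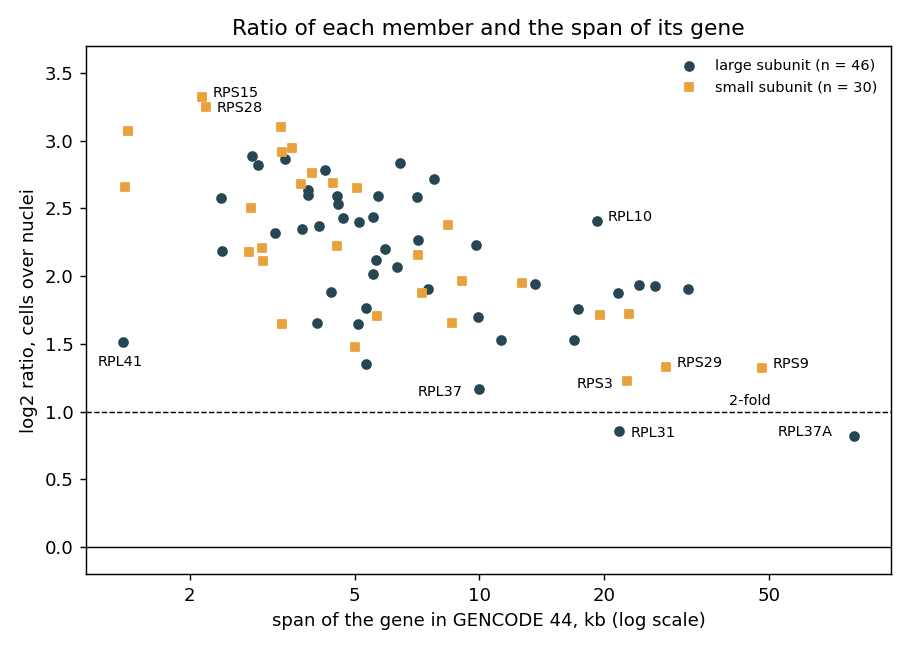
Log2 ratio of CPM, cells over nuclei (y axis), against the span of each gene in kb on a log scale (x axis), for 46 large-subunit and 30 small-subunit genes, with a dashed line at a 2-fold difference. The ratio falls from above 3 for RPS15 and RPS28 to below 1 for RPL31 and RPL37A, and RPL41 is low despite its short span.

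Members with special roles had ratios between these ends. The stalk proteins RPLP0, RPLP1 and RPLP2, which recruit translation factors to the ribosome, were 6.04-fold, 7.29-fold and 7.07-fold higher in cells. RPSA, a small-subunit protein also known as the laminin receptor, was 3.29-fold higher. RPS27A, made as a fusion with ubiquitin, had 54.4 ± 2.94 CPM in cells and 8.02 ± 0.49 in nuclei, a ratio of 6.78. RPL5 and RPL11, which bind MDM2 and so link ribosome assembly to p53, had ratios of 3.25 and 3.14 and thus lay close together. RPS19, the gene most often mutated in Diamond-Blackfan anemia, was 3.86-fold higher, and RPS26, another gene of that disease, was 3.13-fold higher. RPL10, an X-linked gene near the catalytic center of the ribosome, was 5.31-fold higher, RPL39, at the exit tunnel, 5.27-fold and RPL22 3.82-fold. The large-subunit genes RPL13, RPL13A and RPL7 were 6.21-fold, 5.42-fold and 4.05-fold higher.

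Levels of different genes were compared per kb of the canonical transcript. On this scale RPS24 was highest in cells (231 CPM per kb), followed by RPS29 (206), and RPL14 was lowest (10.2). In nuclei RPS29 (81.8) and RPS24 (70.0) were again highest, and RPS28 (2.06) and RPS23 (3.37) were lowest. The canonical transcript of RPL14 is 7136 bases long and that of RPS29 is 295 bases, so part of this range comes from the annotated length. Within the pool of ribosomal protein transcripts, RPL37A made up 3.97% in cells and 8.85% in nuclei, and the 5 most abundant members made up 14.8% and 22.6%.

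Sequences related to members could draw reads from them. The annotation holds 1370 pseudogenes named after a member, and their counts equaled 4.64% of the members' counts in cells and 11.7% in nuclei. For RPL23A and RPSA the pseudogenes together had 261% and 225% of the parent's count in nuclei and 92.5% and 75.6% in cells, so the levels of these 2 members are uncertain. Pseudogene counts were also large beside the parent in nuclei for RPS18 (66.4%), RPL39 (55.5%), RPL31 (43.7%, and 14.6% in cells), RPL32 (34.6%), RPS3A (33.2%) and RPS27 (32.8%), whose ratios of cells to nuclei carry the same doubt. RPSAP58, the pseudogene with the most counts, had 5654 in cells and spans 108219 bases. In addition, 11 members overlap another protein-coding or lncRNA gene on their strand, among them RPL36A (RPL36A-HNRNPH2), RPL17 (RPL17-C18orf32), RPS10 (RPS10-NUDT3), RPL13A and RPS9. The median log2 ratio was 1.91 over these 11 and 2.23 over the other 65 members. A small nucleolar RNA gene lies inside 28 members, 60 such genes in all, and the median log2 ratio was 2.15 with and 2.22 without one.

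The median log2 ratio of each related list lay below that of the members, except for mitochondrially encoded mRNAs. Of 11 ribosomal protein genes and paralogs outside the naming rule, 10 had enough counts and 7 were at least 2-fold higher in cells. FAU (7.76-fold) and RPL36AL (5.24-fold) had the highest ratios of this list, while RPS27L (log2 0.67) and RPL39L, the paralog of RPL39 (log2 -0.08), had the lowest. Of 17 translation factors and other TOP mRNAs, 7 were at least 2-fold higher, with a median log2 ratio of 0.75. Among these, EEF1A1 (4.19-fold) and TPT1 (4.18-fold) were highest, and EIF3H (1.16-fold) and EIF3E (1.13-fold) were lowest. For ribosome biogenesis genes and mitochondrial ribosomal proteins, the share at least 2-fold higher was below the 28.5% of all genes tested. Of 22 ribosome biogenesis genes, which act mainly in the nucleolus, 5 were at least 2-fold higher (median log2 0.70), led by NOP10 (log2 1.89) and SBDS (log2 1.40), with POLR1A (log2 0.23) and NMD3 (log2 0.17) at the other end. Of 78 genes of mitochondrial ribosomal proteins, 17 were at least 2-fold higher (median log2 0.64), from MRPL41 (log2 3.51) and MRPL12 (log2 2.93) down to MRPS25 (log2 -0.27) and MRPS6 (log2 -0.51).

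The remaining lists held cytoplasmic, mitochondrial and nuclear RNAs of other kinds. Of 14 cytoskeletal and glycolytic mRNAs, 11 were at least 2-fold higher in cells (median log2 2.02), led by TMSB10 (log2 2.84) and TMSB4X (log2 2.79), with LDHA (log2 0.30) and PGK1 (log2 0.20) lowest. All 13 mitochondrially encoded mRNAs were higher, with a median log2 ratio of 4.29, the highest being MT-ND4L (log2 5.03) and MT-ND3 (log2 4.90) and the lowest MT-CO3 (log2 3.93) and MT-CO1 (log2 3.72). Of 3 RNAs retained in the nucleus, NEAT1 (log2 -1.34) and MALAT1 (log2 -0.33) were lower in cells, and MEG3 had a log2 ratio of 1.97 at 377 counts in cells and 44 in nuclei.

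Members were seen more often in single cells than in single nuclei, with and without thinning to equal depth. After each barcode was thinned to 1000 transcripts, 95.7% of cells (interval 95.4 to 95.9) and 69.0% of nuclei (interval 68.2 to 69.7) held at least 1 ribosomal protein transcript, and a cell held a median of 4 and a nucleus a median of 1. Without thinning the shares were 99.1% and 93.9%. A single member was seen in a median of 6.13% of thinned cells and 1.63% of thinned nuclei, from 1.47% (RPL39) to 20.3% (RPL37A) in cells. No cell type lacks ribosomal proteins, so no type could serve to measure free RNA, and barcodes of 10 to 100 transcripts were used instead.

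In those near-empty barcodes the ribosomal protein share was 0.435% ± 0.0141 in cells and 0.146% ± 0.00172 in nuclei. The pooled share in kept cells was thus higher than in their background, while in kept nuclei (0.144% ± 0.00446) it differed from their background by less than the SD over sub-libraries. The share of kept nuclei was 0.136% without a cluster of 857 nuclei led by heat shock genes. Without the well with the highest share it was 0.132%. Both values lay below the background of nuclei by more than this SD. The median over the 48 wells of kept cells (0.359%) lay below the background of cells. The median over the 12 wells of kept nuclei (0.122%) also lay below their background. Neither background was split by well. Among single members, 20 of 76 were at least 1.5-fold higher in kept cells than in background, against 7.60% of all genes tested. As a part of the ribosomal protein pool, RPS28 rose most from background to kept cells (log2 0.95), and RPLP0 (0.75), RPL7 (0.72) and RPL10 (0.49) also rose in this measure. RPL35A fell most (log2 -0.46), followed by RPS6 (-0.37), RPL37 (-0.35), RPS12 (-0.34) and RPL37A (-0.26). The order of the pool was otherwise close in both (Spearman rho 0.95 over 76 members in cells, which share library and gene lengths).

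Among kept cells, the share changed little with depth. It was 0.569% at up to 2000 transcripts, 0.542% above 2000 to 5000, 0.511% above 5000 to 10000 and 0.581% above 10000, with SDs over sub-libraries from 0.0269 to 0.0445. The deepest cells had 1.02 times the share of the shallowest (interval 1.01 to 1.03), which is within the SD over sub-libraries of 0.0885. At least 1.5-fold differences between these classes were found for 4 members upward, against 9.28% of genes, and for none downward, against 3.98%. Within single wells the direction was mixed, as the ratio was above 1 in 13 of 33 wells and below 1 in 20, with a median of 0.898.

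In nuclei the pooled share was lower in deeper classes, from 0.191% ± 0.0170 at up to 2000 transcripts to 0.130% ± 0.0067 above 10000. The ratio was 0.682 (interval 0.665 to 0.699), and the deepest nuclei had the lower share in 9 of 9 wells with enough barcodes, with a median ratio of 0.516. Of the 73 members with at least 100 counts, 39 were at least 1.5-fold lower in the deepest class, against 9.86% of genes, and none was 1.5-fold higher, against 9.67%. Members with too few counts there included RPL39 and RPS28. The difference rested largely on an unnamed cluster of 857 nuclei led by heat shock genes, described with the types, of which 452 were in the shallowest class and 3 in the deepest. Without this cluster the shares were 0.132% and 0.130%, a ratio of 0.981. Of the 71 members then tested, 2 were at least 1.5-fold lower, against 6.98% of genes, and 4 at least 1.5-fold higher, against 10.7%, and the deepest nuclei had the lower share in 7 of 8 wells (median ratio 0.839). The median share of single nuclei changed less than the pooled share even with the cluster, from 0.122% in the shallowest class to 0.109% in the deepest. Barcodes of nuclei with more than 100 and up to 1000 transcripts, which were not kept, had a share of 0.396% together with 5.53% mitochondrial transcripts, and 0.375% where the mitochondrial share was at most 20%. Mitochondrial transcripts made up 0.593%, 0.323%, 0.329% and 0.496% of the 4 classes of kept nuclei from shallowest to deepest, and so did not follow the order of the ribosomal protein shares.

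**Figure D3:**
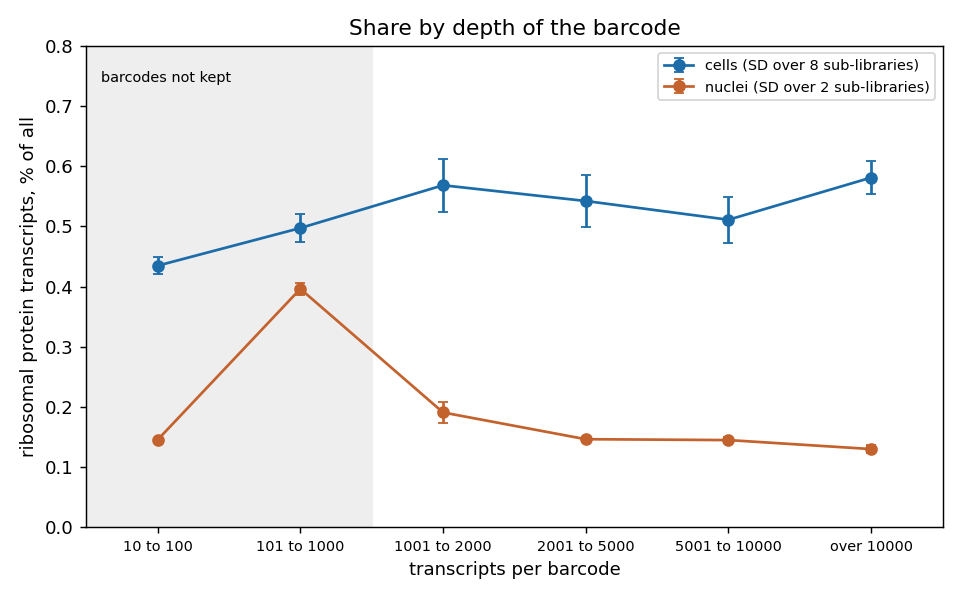
Share of ribosomal protein transcripts among all transcripts, in percent (y axis), by the number of transcripts in a barcode (x axis), for cells and nuclei, with bars for the SD over sub-libraries and gray shading over barcodes not kept. Kept cells stay between 0.511% and 0.581%, and nuclei fall from 0.396% at more than 100 and up to 1000 transcripts to 0.130% above 10000, where the step between kept classes rests largely on the heat shock-led cluster.

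Types were defined by clustering barcodes on variable genes without any ribosomal protein gene, pseudogene or mitochondrial gene, so the members did not enter the clustering directly, although genes that vary with them could. A cluster could be named when at least 3 listed markers reached 1.5 times the mean of the other barcodes and 25% of its barcodes. The glycolysis-marked name also needed a marker of its list among the first 10 genes of the cluster. Clusters stayed unnamed where lists tied, or where another list had more markers among the first 10 genes. These rules, chosen after the data were seen, named 15 of 22 clusters of cells and 11 of 18 clusters of nuclei. The RG-like cells (2021) reached the limits for 7 of 10 RG markers, and the 3 excitatory neuron-like clusters (3698 cells) for 3, 7 and 7 of 10 markers. The cluster with 3 markers held 2226 of the 3698 cells, and 42.4% of it came from a single well. In nuclei, 2955 were RG-like (5 and 6 of 10 markers) and 2545 excitatory neuron-like (7 of 10 in both clusters). Unnamed clusters held 5670 cells, with a ribosomal protein share of 0.744%, and 3553 nuclei, with 0.175%.

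RG-like barcodes had a higher ribosomal protein share than excitatory neuron-like ones in both libraries. In cells it was 0.654% ± 0.0447 against 0.345% ± 0.0121, a ratio of 1.89 (interval 1.87 to 1.91), and 1.96 without the neuron-like cluster that passed only 3 markers. In nuclei it was 0.203% ± 0.00309 against 0.104% ± 0.00454, a ratio of 1.95 (interval 1.91 to 2.00). Within wells that held at least 20 barcodes of each type, the RG-like share was the higher one in 21 of 21 wells of cells (ratios 1.15 to 2.17) and in 12 of 12 wells of nuclei (ratios 1.25 to 1.87). Median depth was 4563 transcripts in RG-like and 2158 in excitatory neuron-like cells, and 2882 and 4370 in nuclei, so the depth difference had opposite directions in the libraries. At 1000 transcripts per barcode, an RG-like cell held a mean of 6.13 ribosomal protein transcripts and an excitatory neuron-like cell 3.61, and the corresponding nuclei held 1.78 and 0.997. Other TOP mRNAs moved alike, at 0.270% and 0.165% of transcripts in the same cells.

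**Figure D4:**
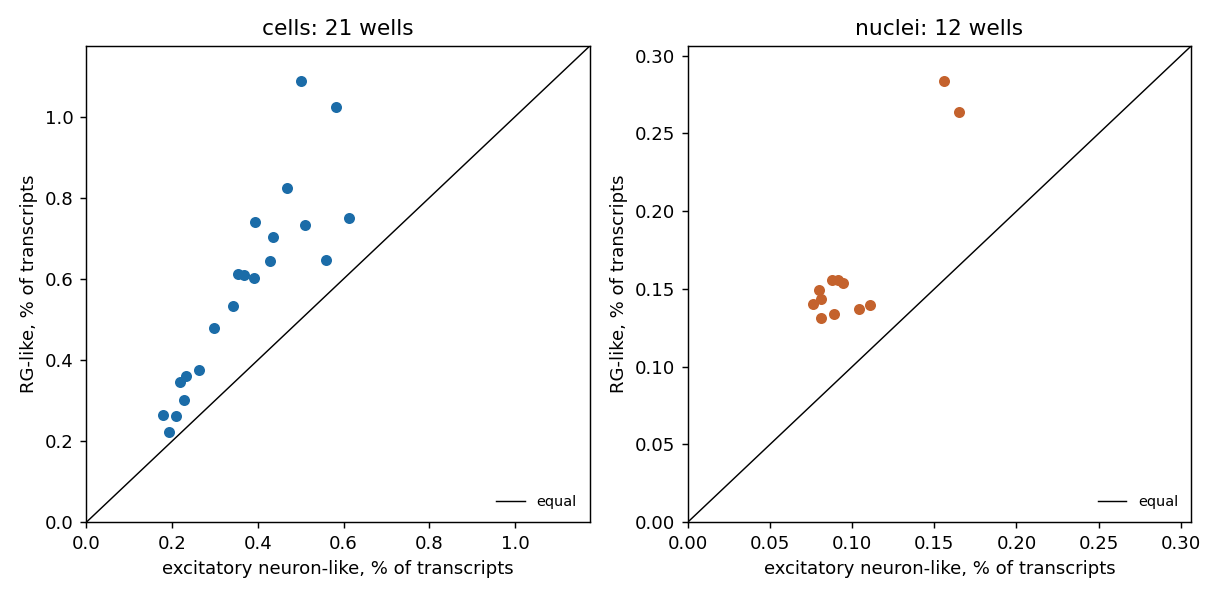
Share of ribosomal protein transcripts in RG-like (y axis) and excitatory neuron-like barcodes (x axis) of the same well, in percent of transcripts, for 21 wells of cells and 12 wells of nuclei, with the line of equality. All points lie above the line in both panels.

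Nearly all members took part in this difference. At least 1.5-fold higher levels in RG-like cells were found for 74 of 76 members, against 22.5% of all genes tested, and all 76 had a ratio above 1. In nuclei, 66 of the 72 members with at least 100 counts were at least 1.5-fold higher, against 31.0% of genes, and 70 of 72 had a ratio above 1. RPS15, RPS21, RPL39 and RPS28 had too few counts there. Across wells, 76 of 76 members were higher in RG-like cells in most of the 21 wells, against 62.0% of all genes tested. In nuclei, 67 of the 72 members with enough counts were higher in most of the 12 wells, against 59.4% of genes.

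RPLP0 showed the largest difference of any member in both libraries. It had 0.811 ± 0.102 counts per 10000 in RG-like and 0.266 ± 0.0313 in excitatory neuron-like cells, and 0.179 ± 0.0155 and 0.0518 ± 0.00992 in nuclei. The log2 ratios were 1.61 and 1.79, and RPLP0 was higher in the RG-like barcodes in 19 of 21 wells of cells and 11 of 12 wells of nuclei. In nuclei the ratio rested on 69 counts in excitatory neuron-like barcodes (interval 2.61 to 4.62). This interval covers the ratios of RPS19 (log2 1.58) and RPL3 (log2 1.57), so the rank in nuclei is uncertain. RPS26 showed the smallest difference in cells, with 0.272 ± 0.0527 and 0.219 ± 0.0255 counts per 10000 (log2 0.31), and was higher in 11 of 21 wells, so its direction was not stable. In nuclei RPS26 had a log2 ratio of 0.11, and RPL36 (-0.36) and RPS29 (-0.17) had ratios below 1. RPL36 was lower in RG-like nuclei in 10 of 12 wells but higher in RG-like cells in 13 of 21, and it overlaps HSD11B1L on the same strand.

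Other types differed between the libraries. Choroid plexus-like cells, which resemble the secretory epithelium of the ventricles, had the highest share of the named types of cells (0.704% ± 0.0552). It exceeded the shares of dividing cells (0.659%) and RG-like cells (0.654%) by less than this SD over sub-libraries. Mitochondrial transcripts made up 8.10% in choroid plexus-like cells against 2.56% in RG-like cells. Choroid plexus-like nuclei had 0.117% ± 0.0043, below RG-like nuclei. Among the named types of nuclei, glycolysis-marked nuclei had the highest share (0.210% ± 0.0139), which differed from that of RG-like nuclei by less than the SD over sub-libraries and was higher in 7 of 9 wells. Glycolysis-marked cells had 0.562% ± 0.0261 and were below RG-like cells in 10 of 12 wells. The share in cells over that in nuclei was thus 6.0 for choroid plexus-like barcodes, 3.23 for RG-like and 3.33 for excitatory neuron-like ones. Within wells, choroid plexus-like cells exceeded excitatory neuron-like cells in 8 of 8 wells but RG-like cells in only 3 of 8. A choroid plexus-like cluster of 111 cells came almost entirely from a single well (94.6%) and had 0.452%, against 0.730% in the other choroid plexus-like cluster. Dividing RG-like cells, with markers of both classes, had 0.361% ± 0.0289, a ratio of 0.553 to RG-like cells over all cells. Within wells they lay below RG-like cells in 9 of 10, with a median ratio of 0.828. Dividing RG-like nuclei lay below RG-like nuclei in 12 of 12 wells (0.126% against 0.203%). The dividing RG-like clusters of cells differed. A cluster of 953 cells (3 of 10 RG and 5 of 15 dividing markers) had 0.276%. Another of 755 cells (7 of 10 and 12 of 15) had 0.282%. The share was higher, with an interval of 0.495% to 0.505%, in 746 cells with the most markers (8 of 10 and 15 of 15). In cells, a dividing cluster that did not reach the limit of 3 RG markers (2160 cells) had 0.659% ± 0.0621 at a median depth of 1482.5 transcripts. Within wells it exceeded dividing RG-like cells in 2 of 5, with a median ratio of 0.970, and 34.9% of it came from a single well. The dividing nuclei (589, with 5 of 15 dividing markers) had 0.129% ± 0.0103. Their median depth was 10400 transcripts, and the part of doublets was not tested. Over all nuclei their share differed from the 0.126% of dividing RG-like nuclei by less than the SD over sub-libraries. Within wells it was the higher one in 6 of 7, with a median ratio of 1.24. IPC-like cells (1182) had 0.467% ± 0.0395, between RG-like and excitatory neuron-like cells. Of these, 291 formed a cluster with a median of 25327 transcripts, where the part of doublets was not tested. This cluster gave 13736858 of the 20498269 IPC-like transcripts and had 0.428%. It passed 3 of 6 IPC, 3 of 10 excitatory neuron and 3 of 7 hypoxia or glycolysis markers. The other IPC-like cluster (891 cells, 4 of 6 IPC and 3 of 10 excitatory neuron markers) had 0.545%.

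**Figure D5:**
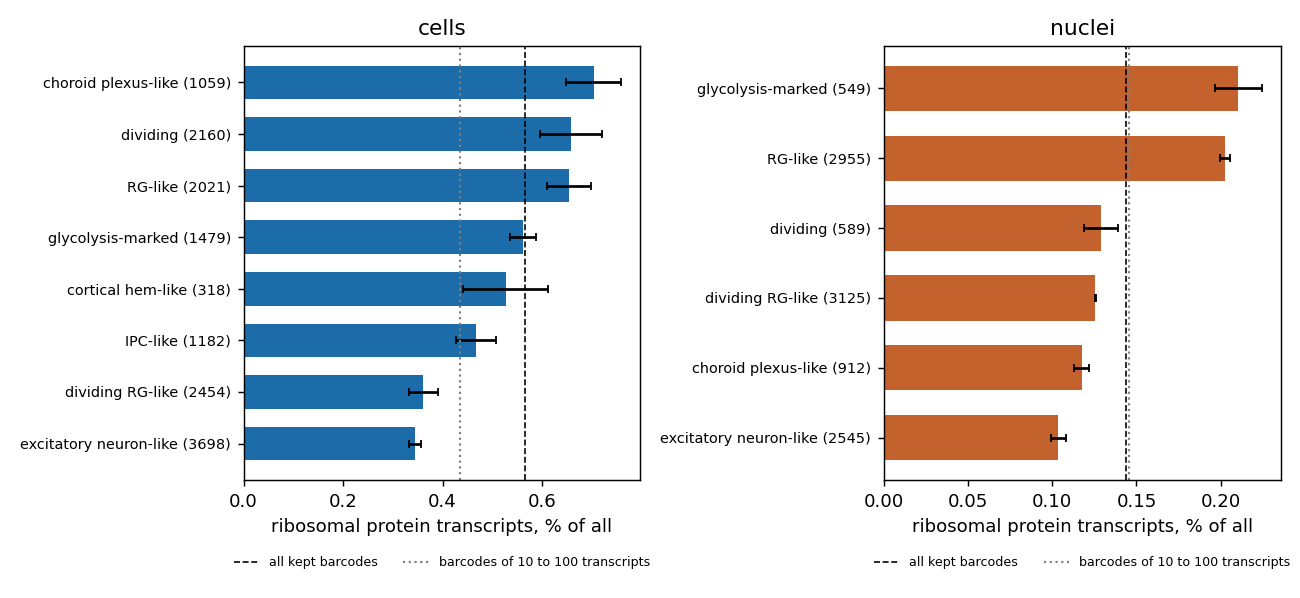
Share of ribosomal protein transcripts in percent of all transcripts (x axis) for each named type with at least 200 barcodes, with the number of barcodes in parentheses and bars for the SD over sub-libraries, in cells and nuclei. The dashed line marks all kept barcodes and the dotted line barcodes of 10 to 100 transcripts. RG-like barcodes lie above and excitatory neuron-like barcodes below both lines in each library.

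The members that varied most between types of cells were highest in choroid plexus-like cells. RPL41 had 0.578 ± 0.0704 counts per 10000 there and 0.144 ± 0.0306 in excitatory neuron-like cells, a ratio of 4.02 (interval 3.50 to 4.62). RPL13A, a large-subunit protein also known from the control of inflammatory mRNAs, had a ratio of 3.53, RPS6, the target of S6 kinase, 3.29, and RPLP1 3.26. Each of these was higher in choroid plexus-like cells in 8 of 8 wells. RPL35A had a ratio of 3.20 between dividing and dividing RG-like cells, with 1.78 ± 0.540 and 0.558 ± 0.0848 counts per 10000, in 4 of 5 wells. In nuclei, RPL37A had the largest ratio that rested on more than 100 counts in each type (4.40, glycolysis-marked over dividing RG-like), and RPLP0 had a ratio of 3.45 between RG-like and excitatory neuron-like nuclei. The large ranges of RPS15, RPS16 and RPS28 rested on few counts. RPS15 had 16 counts in glycolysis-marked and 15 in choroid plexus-like nuclei and was higher in the former in 3 of 9 wells. RPS16 was higher in glycolysis-marked than in excitatory neuron-like nuclei in 7 of 9 wells, and RPS28 was higher in RG-like than in excitatory neuron-like nuclei in 6 of 12 wells.

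RPL37A was high in glycolysis-marked barcodes, a class with raised markers of hypoxia and glycolysis. It had 3.38 ± 0.193 counts per 10000 in these cells, next to 2.90 ± 0.508 in dividing, 2.61 ± 0.334 in RG-like and 1.12 ± 0.164 in dividing RG-like cells. The value in dividing cells differed from it by less than their SD over sub-libraries. In nuclei it had 3.57 ± 0.00148 in glycolysis-marked and 0.811 ± 0.0388 in dividing RG-like ones, a ratio of 4.40 (interval 4.01 to 4.83). RPL37A made up 6.01% of ribosomal protein transcripts in glycolysis-marked cells and 3.81% in all other cells, and was the higher in 18 of 18 wells. The corresponding values in nuclei were 17.0% and 8.53%, higher in 8 of 9 wells. No other protein-coding or lncRNA gene overlaps RPL37A in GENCODE.

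A cluster of 857 nuclei led by heat shock genes (HSPA8, HSPH1, HSP90AA1 and DNAJA1 among its first 10 genes) stood apart and was left unnamed. It passed 3 of 7 hypoxia or glycolysis markers, but none of these was among its first 10 genes. Its ribosomal protein share was 0.419%, against 0.136% in the other nuclei, a ratio of 3.09 (interval 3.03 to 3.16), and it was higher in 10 of 10 wells, with ratios from 2.08 to 4.36. All 76 members were at least 1.5-fold higher there, against 31.5% of all genes tested, from RPL36 (log2 0.92) and RPL31 (log2 0.93) to RPL39 (log2 2.72). The median log2 ratio was 1.69 over the members and 0.16 over all genes. Other lists were also higher, as TOP mRNAs were at 0.242% against 0.120%, ribosome biogenesis genes at 0.135% against 0.0617%, and cytoskeletal and glycolytic mRNAs at 0.124% against 0.0576%. Mitochondrial ribosomal proteins were at 0.200% against 0.122%. All mitochondrial transcripts made up 0.949% of the cluster against 0.389% of all kept nuclei, the mitochondrially encoded mRNAs were at 0.0288% against 0.0210% in the other nuclei, and median depth was 1912 against 4043 transcripts. The part of depth and of cytoplasmic RNA in this difference was not tested.

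The share of ribosomal protein transcripts varied between wells. In cells it ranged from 0.152% to 1.02% over 48 wells with a median of 0.359%, and in nuclei from 0.0925% to 0.246% over 12 wells with a median of 0.122%. The 2 highest wells of nuclei (0.235% and 0.246%) lay apart from the third (0.157%). The wells hold unknown conditions, days and organoids, so these values are given only as a range. RPS6, for example, ranged from 32.5 to 469 CPM over the wells of cells with a median of 100.6, and RPL37A from 47.9 to 387 with a median of 173. In cells the members moved together across wells, since the Spearman rho of a member with the sum of the others had a median of 0.90 over the 76 members and was above 0.8 for 73, where the wells share denominators and cell type makeup. RPL41 had the lowest value in cells (0.67). In nuclei the median was 0.70 over 12 wells, and RPS29 (-0.55) and RPL31 (-0.34) had values below 0.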

How the data were processed

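The authors deposited, for each of the 2 libraries, a matrix of transcript counts per gene and barcode, whole numbers that were not normalized, made with the split-pipe software of the kit's manufacturer. The submitters' processing notes name GRCh38 as the genome. From these counts, barcodes over 500 genes and over 1000 transcripts, and not over 20% mitochondrial, were kept, and shares, counts per 1000000 (CPM) and ratios were computed over summed counts (Python 3.11.15, numpy 2.4.6, scipy 1.17.1). Genes with at least 100 counts over the 2 groups of a comparison were compared. Barcodes were clustered with scanpy 1.11.5 (Leiden, resolution 1) without the members, and clusters were named from marker lists. Scrublet called 0 doublets and so gave no usable call, so the barcodes with the highest scores were left out only as an alternative. Gene spans, lengths and overlaps came from GENCODE release 44, and start regions from RefSeq. The members and lists were chosen with earlier results of these data known. Named members were those with the 5 highest and 5 lowest ratios, the 5 with the largest range over types in each library, the 5 highest and 5 lowest against background, RPL13, RPL13A and RPL7, which the study lists, and members with special roles. Of other lists, the 2 highest and 2 lowest genes were named. Other members, such as RPS24, RPS29, RPL14, RPS23, RPL36 and RPL23A, were named after their values were seen. Results for some items are not reported here. The code was tested on simulated data. Each library is 1 sample, so no test was made, and no barcode was assigned to a condition.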

Additional observations from a re-analysis of the deposited data

How the results depend on the processing

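Under the alternatives that were run, directions held except for the depth ratio of cells, which lay on both sides of 1. The alternatives without a well or a cluster and those within wells were chosen after seeing the data. In cells, the ribosomal protein share was 0.654% over protein-coding genes only and 0.593% with pseudogenes added. In nuclei it was 0.163% and 0.161% under these choices, 0.139% above 5000 transcripts, 0.156% as a mean over barcodes, 0.155% after thinning, 0.132% without the well with the highest share and 0.136% without the heat shock-led cluster. The ratio of cells to nuclei was 3.68 with pseudogenes, 3.53 as a mean over barcodes, 3.54 after thinning, 4.21 without the highest well of each library and 4.18 without the heat shock-led cluster. Scaling by the median of all genes lowered the median log2 ratio of the members to 1.74. The ratio of RG-like to excitatory neuron-like cells was 1.46 at a Leiden resolution of 0.5 and 1.56 as the median within wells. In nuclei it was 2.33 above 5000 transcripts, 1.78 as a mean over barcodes, 1.75 after thinning, 2.19 and 1.88 at resolutions of 0.5 and 2, 1.77 with another clustering seed and 1.66 within wells. The ratio of the deepest to the shallowest nuclei was 0.717 with pseudogenes, 0.516 within wells and 0.981 without the heat shock-led cluster, which held 452 of the shallowest nuclei, and that of cells, 1.02 over all cells, was 0.898 within wells. Thinning with another seed found a member in 69.5% of nuclei. The causes of these shifts were not tested.

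Leaving out each sub-library in turn gave ratios of cells to nuclei from 3.86 to 4.03, median log2 ratios from 2.16 to 2.24, shares from 0.562% to 0.571% in cells and from 0.141% to 0.147% in nuclei, type ratios from 1.86 to 1.92 and from 1.92 to 2.00, and depth ratios from 0.989 to 1.04 in cells and from 0.659 to 0.695 in nuclei. The pseudogene percentage ranged from 4.53 to 4.71 in cells and from 11.6 to 11.9 in nuclei, and the same 74 members were at least 2-fold higher and 0 at least 2-fold lower each time. Members with few counts in nuclei, such as RPS28, RPS15 and RPL39, have wide intervals. No paired analysis was possible because each library is 1 sample and the metadata used here do not tie barcodes to organoids or batches, which cells and nuclei may share. Pairing by well was within a library only.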
